A study of Mus musculus with 8 samples.

Results

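The genes described here code for enzymes that attach a glucuronic acid, sulfate, glycine or acetyl group to small molecules, in the whole kidney of mice with and without c-Maf. They were chosen by name: every gene symbol that begins with Ugt, Sult, Acsm or Nat followed by a digit, or with Glyat, and that had at least 10 counts in at least 4 of the 8 libraries. Of 55367 genes counted, 72 had such a symbol and 38 met the count minimum, whereas 34 did not, among them 18 with 0 counts in every library. The 38 genes were 7 Ugt1a genes, 4 Ugt2 genes, 2 Ugt3 genes, Ugt8a, 4 Sult1 genes, 2 other Sult genes, 4 Acsm genes, Glyat, 9 genes of the Nat8 family and 4 other Nat genes. A symbol does not fix a function: Ugt8a makes the galactosylceramide of myelin, Nat10 acetylates RNA, and Nat8b-ps is annotated as a pseudogene.

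Conjugation makes foreign and endogenous compounds more soluble in water, so that they can be carried into bile or urine. UDP-glucuronosyltransferases (UGTs) use UDP-glucuronic acid, sulfotransferases (SULTs) use the sulfate donor PAPS, and the pair of ACSM and GLYAT enzymes first joins an acid such as benzoate to coenzyme A and then passes it to glycine. In the kidney these enzymes are found mainly in the proximal tubule, and several of them are known to differ between male and female rodents.

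RNA-Seq was performed on whole kidneys of 4 Maf conditional KO mice (c-MafΔTAM) and 4 Maf flox/flox mice (c-Maf fl/fl, the controls), all C57BL/6J and given as 8 weeks of age. Both genotypes carried the floxed Maf allele and received tamoxifen. Only c-MafΔTAM mice carried the CAG-Cre-ERTM transgene, whose promoter is active throughout the body and not in the tubule alone. Deletion in other tissues was not analysed here. The sexes of the mice are not given in the labels. The comparison asks how the loss of Maf in the adult changes kidney transcripts.

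Libraries held 16649129 to 22990257 counts, of which genes of the mitochondrial genome took 17.1% to 32.3%. Maf itself had 178 to 671 counts in c-MafΔTAM and 5988 to 7746 counts in control mice (log2 fold change -4.05 ± 0.51 (SE), edgeR quasi-likelihood adjusted P = 0.0115). One label protocol names liver as the source of the RNA, but Umod, the main protein of the thick ascending limb, averaged 2588 and 2829 CPM (counts scaled to the size of each library) in the 2 genotypes, and Lrp2, a receptor of the proximal tubule, 6759 and 7580 CPM. Of 12 hepatocyte markers, Ahsg had 0 counts in every mouse and 8 others averaged at most 9.89 CPM in either genotype, whereas Apob (554 CPM in c-MafΔTAM and 675 CPM in control mice), Cyp2e1 (447 and 285 CPM) and Ttr (1.26 and 41.4 CPM) were higher. Xist, the transcript of the inactive X chromosome, had 17618 to 22387 counts in 5 mice (c-MafΔTAM mice 2, 3 and 4 and control mice 1 and 2) and 2 to 22 counts in the other 3 (c-MafΔTAM mouse 1 and control mice 3 and 4), and only those 3 expressed the Y-linked Ddx3y, Kdm5d, Uty and Eif2s3y (474 to 917 counts each, against at most 7). These are called mice with high and low Xist, and by these transcripts the former were female and the latter male. The c-MafΔTAM group thus held a single mouse with low Xist, which also had the highest mitochondrial share, and the conjugation genes took 0.33% to 0.387% of the counts in mice with high Xist and 0.568% to 0.576% in mice with low Xist.

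No conjugation gene was called between the genotypes in the comparison without covariates. In this test of 20149 genes (edgeR quasi-likelihood, Benjamini-Hochberg adjusted P under 0.05), 1.58% of all genes were lower and 0.586% higher in c-MafΔTAM mice, and 0 of the 38 conjugation genes were called in either direction. At an unadjusted P under 0.05, 3 were lower and 6 higher (7.44% and 6.58% of all genes). DESeq2 called 1 lower and 2 higher (2.81% and 1.58% of all genes), edgeR's exact test 1 lower and 2 higher (2.1% and 1.25%), and limma after quantile normalization 0 lower and 1 higher (1.33% and 0.7%). The median log2 fold change of the 38 genes was -0.01, beside 0.00 for all genes tested. The CPM of the genotypes did not overlap for 4 of the 38 conjugation genes (Ugt1a7c, Sult1b1 and Acsm5 lower, Nat8f7 higher in c-MafΔTAM mice). This share was similar to that of all tested genes, of which 9.79% did not overlap.

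**Figure D1:**
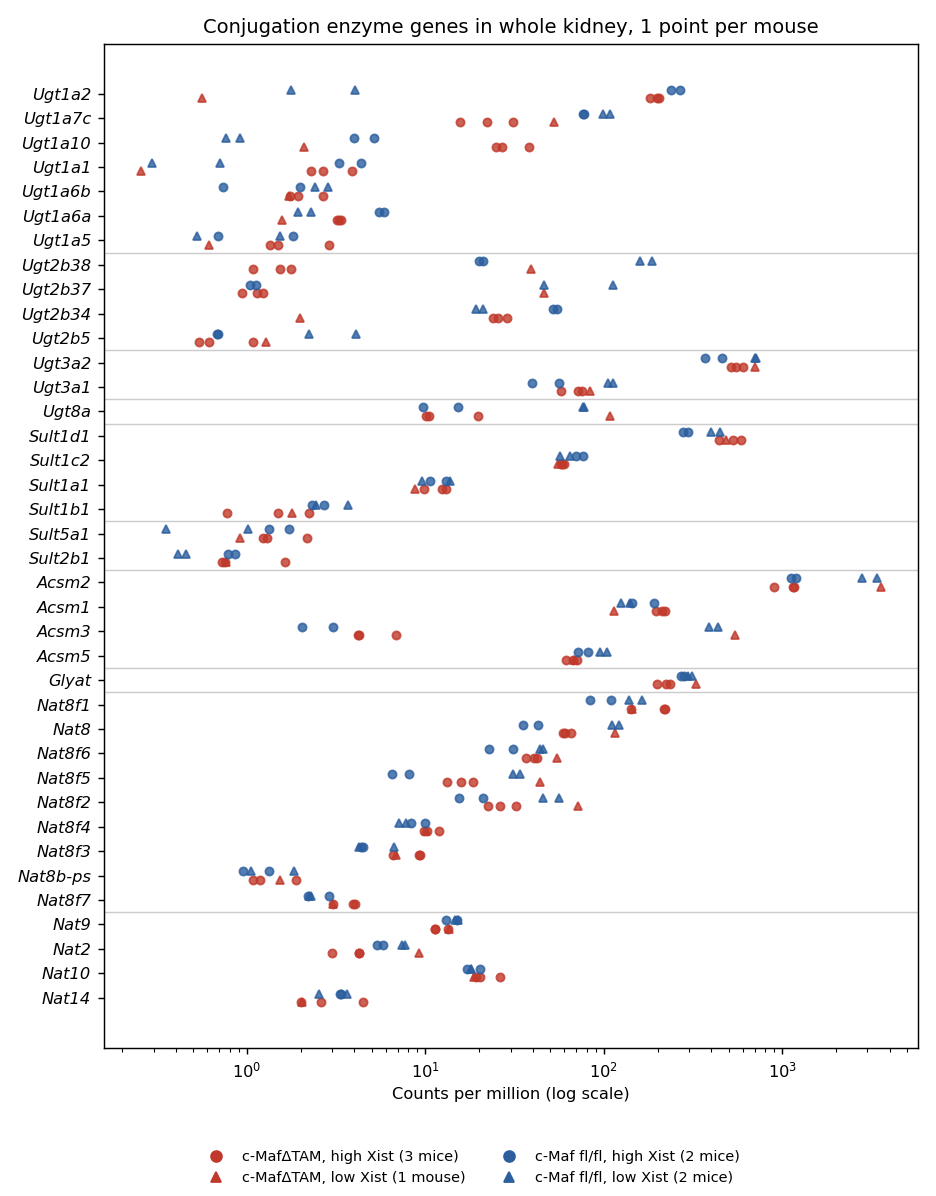
CPM of the 38 conjugation genes in each mouse on a log axis, grouped by family (grey lines) and ordered by level per length, with c-MafΔTAM mice in red, control mice in blue, circles for high Xist and triangles for low Xist. Triangles and circles separate within both genotypes for genes such as Acsm3 and Ugt1a2, while the colors separate without overlap only for Ugt1a7c, Sult1b1, Acsm5 and Nat8f7.

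With the log2 level of Xist added to the same model, 7 conjugation genes were called. Ugt1a7c, Ugt2b38 and Acsm5 were lower in c-MafΔTAM mice (3 of 38, beside 4.23% of all genes), and Ugt1a10, Sult1d1, Nat8f3 and Nat8f6 were higher (4 of 38, beside 2.59%). The median over the 38 genes was 0.10 in this fit. In the 5 mice with high Xist alone, where the test covered 21027 genes, 4 conjugation genes were lower (Ugt1a2, Ugt2b34, Ugt2b38 and Glyat; background 2.22%) and 7 were higher (Ugt1a10, Sult1d1, Nat8f3, Nat8f6, Nat8f5, Nat8 and Ugt3a2; background 1.53%). These 2 fits share mice with each other and with the comparison above, and the second has 3 mice against 2.

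**Figure D2:**
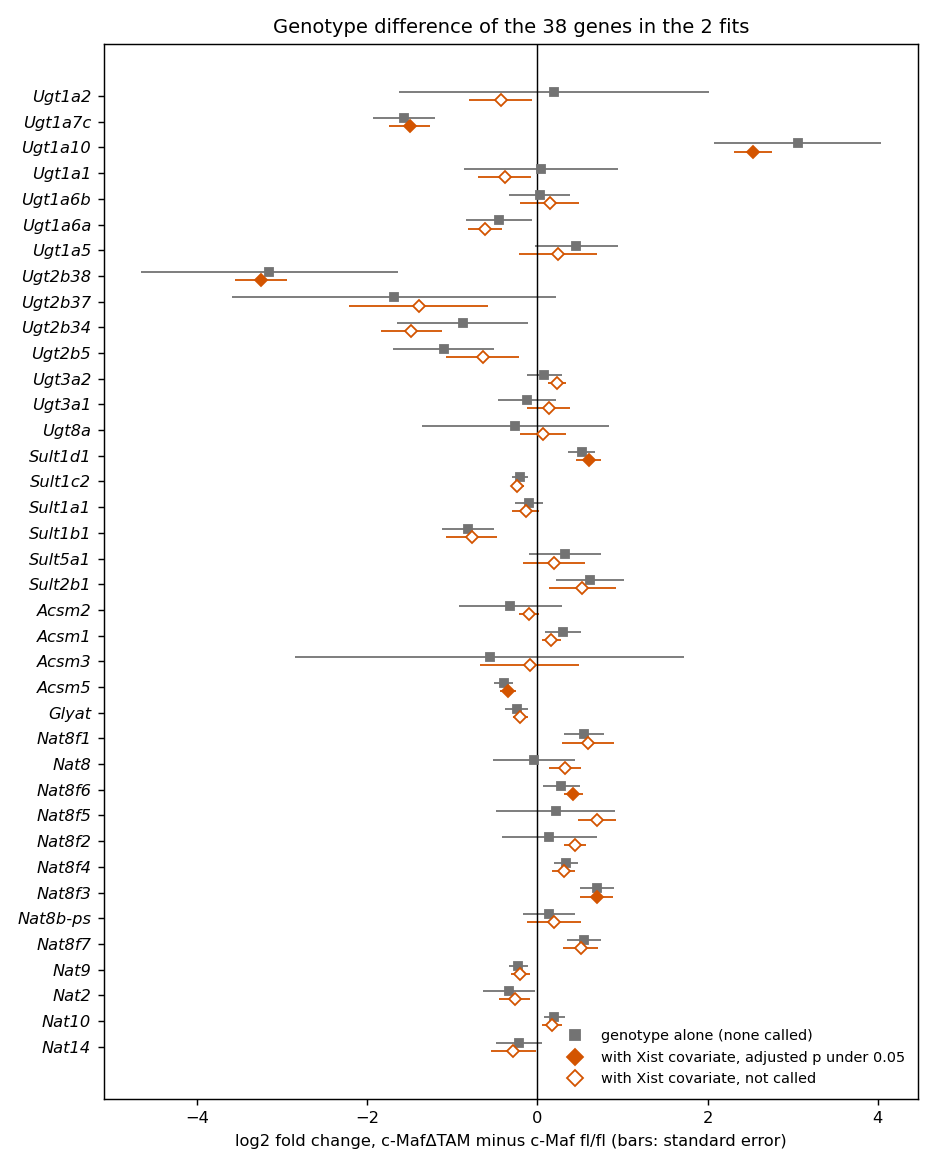
Log2 fold change (c-MafΔTAM minus c-Maf fl/fl, bars are standard errors) of the 38 genes in the fit of genotype alone (grey squares, 4 against 4 mice) and in the fit with Xist as a covariate (orange diamonds, filled where the adjusted P was under 0.05). The 7 filled diamonds are Ugt1a7c, Ugt1a10, Ugt2b38, Sult1d1, Acsm5, Nat8f6 and Nat8f3, and the grey bars are widest for Acsm3, Ugt2b37 and Ugt1a2.

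The Xist coefficient of that model was called for more of these genes than the genotype was. Transcripts of 13 conjugation genes were lower with Xist (background 5.86%) and those of 6 were higher (background 5.32%). Between the lowest and the highest Xist, the fitted log2 differences that reached 2 in size were those of Acsm3 (-7.55 ± 0.63), Ugt2b37 (-6.19 ± 0.84), Ugt2b38 (-4.05 ± 0.31) and Ugt8a (-3.05 ± 0.30) on the lower side and of Ugt1a2 (7.64 ± 0.56), Ugt1a10 (3.47 ± 0.29), Ugt1a1 (3.36 ± 0.42) and Ugt2b34 (2.31 ± 0.44) on the higher side (SE over 8 mice). Ugt2b5, Nat8f6, Nat8f5, Nat8, Nat8f2, Acsm2, Nat2, Ugt3a2 and Glyat were also lower with Xist, and Ugt1a6a and Acsm1 also higher. The call was lost without 1 of several mice for Ugt2b34 (without c-MafΔTAM mouse 2, 3 or 4 or control mouse 1 or 4, adjusted P up to 0.0886) and Ugt2b5 (without c-MafΔTAM mouse 3 or 4 or control mouse 1, 2 or 4, adjusted P up to 0.138). Without c-MafΔTAM mouse 1 it was lost for Ugt2b37 (adjusted P = 0.0791), Acsm1 (0.163), Nat2 (0.360) and Glyat (0.490). Xist moves with sex in these mice, and what else may move with both, such as litter, cannot be told apart here.

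**Figure D3:**
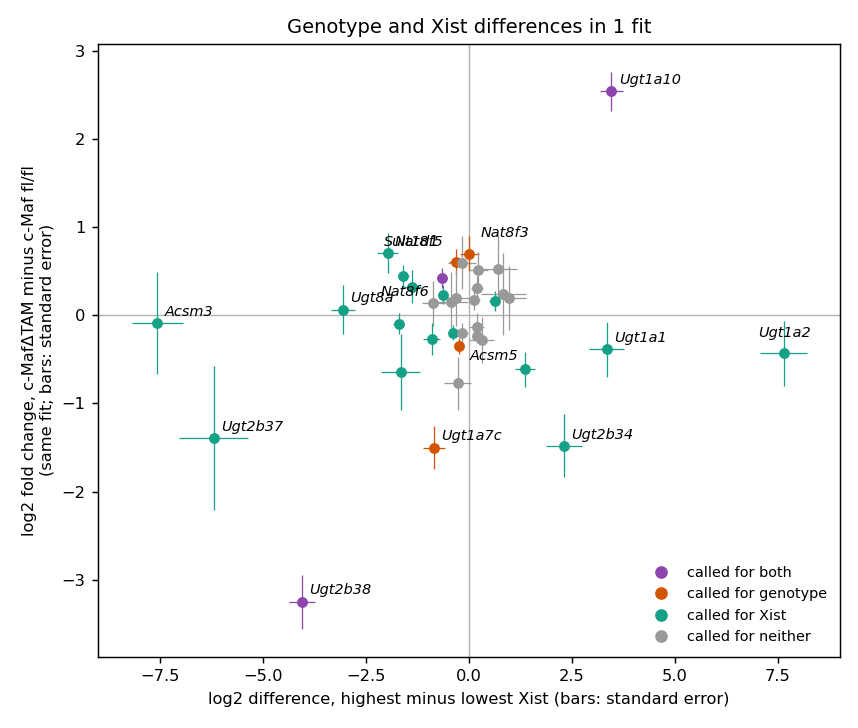
Fitted genotype difference (vertical axis, log2) against the fitted difference between the highest and the lowest Xist (horizontal axis, log2) of the 38 genes in the model with both terms, with standard errors as bars and color for the calls at an adjusted P under 0.05. Ugt1a10 lies far out in the upper right, Ugt2b38 in the lower left, and Acsm3, Ugt2b37 and Ugt1a2 lie far along the horizontal axis without a call for genotype.

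Ugt1a genes differ in their first exon and share most of the rest. A count can thus be given to one of them only by a read in its own part. The annotation of Ugt1a7c runs on to 88220002, past the ends of Ugt1a10 and Ugt1a1. Part of its 1915 unshared bases may thus lie outside its first exon, and the counts there were not examined apart. In the annotation of GRCm38 they lie one after another on the plus strand of chromosome 1, from Ugt1a10 (chr1:88055388-88219004) to Ugt1a1 (chr1:88211959-88218997), and reads on their shared exons were left out of the counts. Levels per kb were taken over the exonic bases that no other gene holds, and their order differed with both genotype and Xist level. With high Xist, Ugt1a2 had the highest mean of the 7 in either genotype (280 CPM per kb in control and 216 in c-MafΔTAM mice). It was followed by Ugt1a7c in control mice (40.2, against 5.64 for Ugt1a10) but by Ugt1a10 in c-MafΔTAM mice (37.0, against 12 for Ugt1a7c). With low Xist, Ugt1a7c was first in either genotype (53.9 and 27.4 CPM per kb), and the other 6 had at most 3.20 CPM per kb. Ugt1a1, the enzyme that glucuronidates bilirubin, had 8.58 CPM per kb over the mice with high and 1.09 over those with low Xist.

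Ugt1a10, a glucuronosyltransferase of phenolic compounds, had 2.09, 27.0, 24.95 and 37.95 CPM in c-MafΔTAM mice 1 to 4 and 3.97, 5.15, 0.913 and 0.762 CPM in control mice 1 to 4. Within each Xist level every c-MafΔTAM mouse was above every control mouse, but the c-MafΔTAM mouse with low Xist was below the control mice with high Xist, so the genotypes overlapped. The mean was 6.57 times that of control mice among mice with high Xist and 2.49 times among mice with low Xist. The log2 fold change was 3.06 ± 0.98 without covariate (adjusted P = 0.241) and 2.54 ± 0.22 with Xist (adjusted P = 8.8e-06), and the call with Xist held in 8 of 8 fits that left out 1 mouse (highest adjusted P = 0.000637). Ugt1a10 shares 38.5% of the 36-base stretches of its own part with another gene, mainly Gm15375, which had at most 8 counts in any library.

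Ugt1a9 and Ugt1a8, the next first exons downstream, lay just under the count minimum. Ugt1a9 had 4, 31, 28 and 50 counts in c-MafΔTAM mice 1 to 4 and 9, 2, 0 and 2 in control mice, and Ugt1a8 had 4, 28, 34 and 26 against 1, 2, 0 and 0. Both reached 10 counts in the 3 c-MafΔTAM mice with high Xist and in no other library. Ugt2a3, which also reached 10 counts in 3 libraries, went the other way, with 1, 0, 3 and 0 counts against 17, 18, 15 and 8. Just inside the minimum, Ugt1a1 and Sult2b1 reached it in 6 libraries each.

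Ugt1a7c, another glucuronosyltransferase of phenols, went the other way. It had 52.5, 31.1, 22.2 and 15.6 CPM in c-MafΔTAM mice and 76.8, 77.2, 98.8 and 107.8 CPM in control mice, with no overlap. The log2 fold change was -1.57 ± 0.37 (adjusted P = 0.100), -1.50 ± 0.24 with Xist (adjusted P = 0.0186) and -1.74 ± 0.29 in mice with high Xist alone (adjusted P = 0.0706). The call with Xist was lost without c-MafΔTAM mouse 3 or control mouse 1, 2 or 4 (adjusted P of 0.0571 to 0.0672), while the log2 fold change stayed between -1.75 and -1.34.

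The sequences before the starts of these neighbors are shown because their transcripts moved in opposite directions, and because c-Maf binds DNA at Maf recognition elements. The 250 bases before each start (RefSeq, GRCm38.p6) were searched on both strands for the short MARE TGCTGAC, the TRE core TGACTCA, the CRE core TGACGTCA and the HNF1 core GTTAAT. The first and second overlap where a short MARE runs on into a TRE core. Matches are printed in capitals.
Ugt1a10, chr1:88055161-88055410, plus strand: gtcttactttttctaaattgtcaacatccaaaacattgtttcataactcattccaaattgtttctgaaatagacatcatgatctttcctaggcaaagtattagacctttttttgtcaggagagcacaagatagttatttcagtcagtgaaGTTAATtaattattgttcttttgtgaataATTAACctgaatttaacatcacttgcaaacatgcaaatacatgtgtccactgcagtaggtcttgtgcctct
Ugt1a7c, chr1:88094751-88095000, plus strand: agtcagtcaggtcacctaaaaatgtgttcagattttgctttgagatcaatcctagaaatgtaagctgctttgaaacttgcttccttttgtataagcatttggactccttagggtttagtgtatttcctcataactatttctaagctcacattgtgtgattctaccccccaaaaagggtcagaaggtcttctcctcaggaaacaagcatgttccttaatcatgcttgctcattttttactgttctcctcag
The Ugt1a10 stretch held the HNF1 core letters once on each strand, at 100 to 95 and at 71 to 66 bases before the start, and that of Ugt1a7c held none of the 4 motifs. Promoters were found for 34 of the 38 genes, 43 in all. The HNF1 core was in 20.9% of these and in 6.43% of all 32851 promoters of that length, the short MARE in 2.33% and 3.81%, the TRE core in 6.98% and 4.46%, and the CRE core in 0 and 1.55%. A match of letters was not tested for binding.

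Among the other Ugt1a genes, Ugt1a2 had 0.560, 205, 182 and 197 CPM in c-MafΔTAM mice and 237, 267, 4.01 and 1.76 CPM in control mice. It split the mice by Xist, and within each Xist level it was lower in every c-MafΔTAM mouse than in control mice. It had 0.772 times the control mean in c-MafΔTAM mice with high Xist and 0.194 times with low Xist. Its direction turned between fits: over all mice the log2 fold change was 0.20 ± 1.82 (adjusted P = 0.978), whereas in mice with high Xist alone it was lower in c-MafΔTAM (-0.37 ± 0.09, adjusted P = 0.0248). Ugt1a1 had 0.254, 2.67, 2.27 and 3.90 CPM against 3.29, 4.38, 0.710 and 0.293 CPM, with the same split by Xist. Ugt1a6a, Ugt1a6b and Ugt1a5 had at most 5.89 CPM in any mouse and were not called for genotype in the fits above, and Ugt1a6b shares 55.7% of its own 36-base stretches, mainly with Ugt1a6a.

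The Ugt2b genes, which glucuronidate steroids and many drugs, include the conjugation gene with the largest fall called with Xist as a covariate. The 4 kept here lie on the minus strand of chromosome 5. Ugt2b38 (chr5:87409942-87424203) had 38.8, 1.54, 1.77 and 1.08 CPM in c-MafΔTAM mice and 19.96, 21.1, 160 and 185 CPM in control mice. At each Xist level c-MafΔTAM mice were lower, with a mean of 0.0714 times that of control mice at high Xist and 0.225 times at low Xist. The c-MafΔTAM mouse with low Xist was above the control mice with high Xist, so the genotypes overlapped. Without covariate the log2 fold change of Ugt2b38, -3.15 ± 1.51, was not called (adjusted P = 0.433), and it ranged from -6.03 (without c-MafΔTAM mouse 1) to -2.62 without 1 mouse, again uncalled. It was -3.25 ± 0.31 with Xist (adjusted P = 0.00242) and stayed called in 8 of 8 fits without 1 mouse (highest adjusted P = 0.0150). In mice with high Xist alone it was -3.81 ± 0.20 (adjusted P = 5.5e-08). Ugt2b38 shares 48.7% of its 36-base stretches with other genes, mainly Ugt2b5, which had 0.541 to 4.10 CPM. Ugt2b5 shares 51.7% and Ugt2b37 29.7% of their own, so the values of these genes are uncertain.

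Ugt2b34 (chr5:86889767-86906937) had 1.98, 28.6, 25.6 and 23.8 CPM in c-MafΔTAM mice and 54.8, 51.8, 21.1 and 19.2 CPM in control mice. Within each genotype it was higher where Xist was high, the reverse of Ugt2b38, and lower in c-MafΔTAM mice at either Xist level, at 0.487 times the control mean with high Xist and 0.0986 times with low Xist. With Xist as a covariate the log2 fold change was -1.48 ± 0.36 (adjusted P = 0.0758), and in mice with high Xist alone -1.04 ± 0.10 (adjusted P = 1.6e-05). Only 2.27% of its 36-base stretches are shared with another gene.

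For these same 2 genes the fitted genotype difference was of unlike size at the 2 Xist levels, with 1 c-MafΔTAM mouse at low Xist. In a model with an interaction of genotype and Xist level, chosen after the data had been seen, 2 of the 38 genes were called, beside 0.194% of all genes. The log2 fold change of Ugt2b34 was lower by 2.30 in mice with low Xist than in mice with high Xist (interaction -2.30, adjusted P = 0.00059), and that of Ugt2b38 was less negative there by 1.65 (adjusted P = 0.00284). In fits without 1 other mouse the interactions were -2.37 to -2.23 and 1.48 to 1.80. All of these fits kept the single c-MafΔTAM mouse with low Xist, so they cannot test its part. In each, the single c-MafΔTAM mouse with low Xist is assumed to vary like the other mice, and its high mitochondrial share was not tested as a part of the difference.

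**Figure D4:**
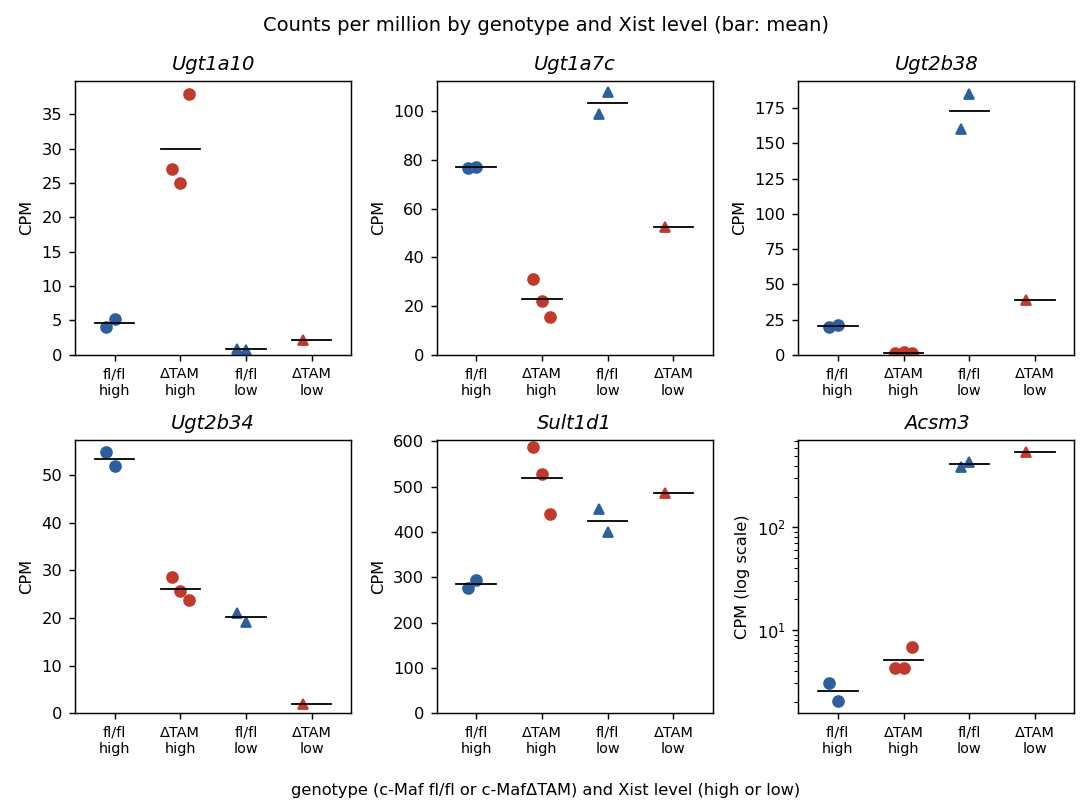
CPM of 6 conjugation genes by genotype and Xist level (circles high, triangles low; c-Maf fl/fl blue, c-MafΔTAM red; bar, mean of 1 to 3 mice), on a linear axis from 0 except for Acsm3, whose axis is logarithmic. Red points lie above blue points of like Xist in Ugt1a10 and Acsm3 and below them in Ugt1a7c, Ugt2b38 and Ugt2b34, and the single red triangle of Ugt2b34 is at 1.98 CPM.

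The stretches before Ugt2b38 and Ugt2b34 are given because these were the 2 genes called in the interaction. Neither holds 1 of the 4 motifs, which says only that those letters are not in this window.
Ugt2b38, chr5:87424204-87424453, minus strand: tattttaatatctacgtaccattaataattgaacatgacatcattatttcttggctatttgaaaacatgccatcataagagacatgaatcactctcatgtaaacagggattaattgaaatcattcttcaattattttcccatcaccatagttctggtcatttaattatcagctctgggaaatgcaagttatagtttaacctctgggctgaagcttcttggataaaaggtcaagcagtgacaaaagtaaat
Ugt2b34, chr5:86906938-86907187, minus strand: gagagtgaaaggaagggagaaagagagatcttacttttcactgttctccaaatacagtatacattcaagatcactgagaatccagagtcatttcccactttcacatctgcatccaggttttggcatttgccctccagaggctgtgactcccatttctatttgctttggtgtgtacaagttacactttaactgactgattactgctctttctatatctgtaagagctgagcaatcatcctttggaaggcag

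Ugt2b37 had 45.9, 1.23, 0.943 and 1.14 CPM in c-MafΔTAM and 1.13, 1.04, 46.4 and 112 CPM in control mice. It was low in all 5 mice with high Xist, and its genotype difference was not called (log2 fold change -1.39 ± 0.82 with Xist, adjusted P = 0.427). Ugt3a2, which uses other sugar donors than glucuronic acid, had 186 CPM per kb over the 8 mice. It was the most abundant UGT per length in mice with low Xist (228 CPM per kb), whereas in mice with high Xist it was at 161 CPM per kb, below Ugt1a2. It had 706, 602, 552 and 518 CPM against 371, 460, 707 and 709 CPM. Among mice with high Xist it was higher in c-MafΔTAM (log2 fold change 0.42 ± 0.10, adjusted P = 0.0343), and at low Xist the means were at a ratio of 0.997. Its neighbor Ugt3a1 had 57.9 to 83.3 CPM and 39.3 to 113 CPM, without a call in these fits. Ugt8a had 108, 10.1, 10.4 and 19.8 CPM in c-MafΔTAM and 15.2, 9.75, 76.4 and 77.3 CPM in control mice, again by Xist.

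Of the sulfotransferases, Sult1d1, an enzyme of catecholamine sulfation, had by far the highest level per length, at 173 CPM per kb in mice with high Xist and 181 in mice with low Xist. It had 485, 588, 527 and 439 CPM in c-MafΔTAM mice and 277, 295, 450 and 399 CPM in control mice. The lowest c-MafΔTAM mouse was just under the highest control mouse, and at each Xist level c-MafΔTAM mice were higher. The log2 fold change was 0.52 ± 0.16 (adjusted P = 0.142), 0.60 ± 0.15 with Xist (adjusted P = 0.0397) and 0.86 ± 0.11 in mice with high Xist (adjusted P = 0.000403). The call with Xist was lost without c-MafΔTAM mouse 3 or 4 or control mouse 1, 2 or 4 (adjusted P up to 0.136). Its upstream stretch, shown as that of the leading sulfotransferase, holds 1 HNF1 core at 79 to 74 bases before the start.
Sult1d1, chr5:87569007-87569256, minus strand: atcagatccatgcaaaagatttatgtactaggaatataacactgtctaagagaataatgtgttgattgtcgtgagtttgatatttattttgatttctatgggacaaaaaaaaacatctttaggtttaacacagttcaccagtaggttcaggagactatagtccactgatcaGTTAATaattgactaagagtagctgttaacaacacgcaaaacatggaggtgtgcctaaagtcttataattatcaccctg

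Sult1c2 was next at 34.8 and 31.8 CPM per kb, with 55.5, 60.1, 57.2 and 58.4 CPM in c-MafΔTAM and 69.5, 76.3, 56.5 and 64.3 CPM in control mice. Its log2 fold change of -0.21 ± 0.10 was not called (adjusted P = 0.36). Sult1b1, which sulfates thyroid hormones, had only 0.776 to 2.22 CPM against 2.30 to 3.69 CPM. These groups did not overlap, but its log2 fold change of -0.82 ± 0.30 was not called (adjusted P = 0.244). Sult1a1, a phenol sulfotransferase, had 8.70 to 13.05 CPM and 9.56 to 13.8 CPM, and Sult2b1, a cholesterol sulfotransferase, and Sult5a1 had at most 2.16 CPM in any mouse. None of these 3 was called for genotype or for Xist.

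The Acsm genes activate medium-chain acids and benzoate by coupling them to coenzyme A in mitochondria. Acsm2 was the most abundant of the 38 genes per length in mice with low Xist (438 CPM per kb), whereas with high Xist it was at 155 CPM per kb in control mice, second to Ugt1a2, and at 144 in c-MafΔTAM mice, after Nat8f1, Ugt1a2, Sult1d1 and Ugt3a2. It had 3590.5, 1150.5, 1161.5 and 893 CPM in c-MafΔTAM mice and 1118, 1189, 2787 and 3374 CPM in control mice. Acsm3 had 545, 4.26, 4.21 and 6.82 CPM against 3.04, 2.03, 387 and 436 CPM. Both were high in the 3 mice with low Xist and neither was called for genotype (log2 fold changes with Xist -0.10 ± 0.12 and -0.09 ± 0.58). The direction of Acsm3 turned between fits: at each Xist level c-MafΔTAM mice were above every control mouse (means at ratios of 2.01 with high and 1.32 with low Xist), and in mice with high Xist alone the log2 fold change was 1.01 ± 0.29 (adjusted P = 0.0778). In Acsm3, 39.7% of exonic bases are shared with Eri2, and reads on them were not counted. Acsm1 had 114, 219, 212 and 195 CPM in c-MafΔTAM and 144, 192, 139 and 125 CPM in control mice. In Acsm1 the c-MafΔTAM mice were the higher ones at high Xist and the lower one at low Xist, a difference that was not called (interaction -0.52, adjusted P = 0.428).

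Acsm5 was the one Acsm gene called for genotype, with Xist in the model. It had 68.3, 67.3, 61.3 and 70.8 CPM in c-MafΔTAM and 71.5, 81.6, 95.1 and 104.5 CPM in control mice, and the 4 c-MafΔTAM mice were all below the lowest control mouse, mouse 4 only just. The log2 fold change was -0.40 ± 0.11 (adjusted P = 0.111), -0.35 ± 0.09 with Xist (adjusted P = 0.0294) and -0.20 ± 0.09 in mice with high Xist alone (adjusted P = 0.317). The call with Xist was lost without c-MafΔTAM mouse 1 or 3 or control mouse 2, 3 or 4 (adjusted P up to 0.354), and the log2 fold change ranged from -0.44 to -0.21, the smallest without c-MafΔTAM mouse 1.

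Glyat, which makes hippurate from benzoyl-CoA and glycine, had 327, 234, 222 and 199 CPM in c-MafΔTAM and 270, 282, 298 and 313 CPM in control mice. The 3 c-MafΔTAM mice with high Xist lay under every control mouse, and c-MafΔTAM mouse 1 was above them. The log2 fold change was -0.24 ± 0.14 over all mice (adjusted P = 0.473) and -0.34 ± 0.09 in mice with high Xist (adjusted P = 0.0428). Without c-MafΔTAM mouse 1 and without covariate, Glyat was called (log2 fold change -0.41). The interaction with Xist level was not called (0.44, adjusted P = 0.353). Its upstream sequence is given because it was the 1 conjugation gene with the short MARE letters upstream, at 55 to 49 bases before the start, where they run on into the TRE core letters at 52 to 46.
Glyat, chr19:12633058-12633307, plus strand: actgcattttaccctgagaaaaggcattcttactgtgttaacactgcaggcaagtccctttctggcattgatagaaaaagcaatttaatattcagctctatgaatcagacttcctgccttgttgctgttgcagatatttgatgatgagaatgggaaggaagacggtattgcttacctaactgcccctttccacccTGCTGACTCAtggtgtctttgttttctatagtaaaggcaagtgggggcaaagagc

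The 9 genes of the Nat8 family, which lie side by side on the minus strand of chromosome 6, include enzymes that acetylate cysteine conjugates in the last step of mercapturate formation. Without covariate 8 of 9 log2 fold changes were above 0, beside 50.5% of all genes, with a median of 0.28, and 0 were called by edgeR's quasi-likelihood test. At an unadjusted P under 0.05, 4 were higher (6.58% of all genes), while DESeq2 called 1 (1.58%), the exact test 1 (1.25%) and limma 0 (0.7%). With Xist as a covariate 9 of 9 were above 0 (50.4% of all genes; median 0.44) and 2 were called higher, beside 2.59% of all genes. Nat8f3 had 6.87, 9.24, 9.32 and 6.55 CPM in c-MafΔTAM and 4.46, 4.38, 4.26 and 6.63 CPM in control mice (log2 fold change 0.70 ± 0.20, adjusted P = 0.104, and 0.70 ± 0.20 with Xist, adjusted P = 0.0420). Nat8f6 had 54.3, 42.5, 40.6 and 36.5 CPM against 22.8, 31.0, 43.7 and 45.7 CPM (log2 fold change 0.28 ± 0.22, adjusted P = 0.633, and 0.42 ± 0.11 with Xist, adjusted P = 0.0342). Both overlapped between genotypes and were higher in c-MafΔTAM mice at each Xist level. The call with Xist was lost without c-MafΔTAM mouse 1, 2 or 3 or control mouse 1, 2 or 3 for Nat8f3 (adjusted P up to 0.159) and without c-MafΔTAM mouse 2 or 3 or control mouse 1, 2 or 3 for Nat8f6 (up to 0.135, where without control mouse 1 the log2 fold change was 0.28).

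The members of the family cannot be fully told apart by reads of this length. Nat8f7 shares 86.3% of its 36-base stretches with other genes, Nat8f6 74.4% and Nat8f3 54.7%, so their values are uncertain. The signs and calls counted above over the family are therefore not independent measures. Nat8f1 had the highest level per length of the family (178 CPM per kb in mice with high and 171 in mice with low Xist), with 143, 216, 220 and 143 CPM in c-MafΔTAM and 83.7, 109, 139 and 164 CPM in control mice (log2 fold change 0.54 ± 0.23, adjusted P = 0.346), and 35.5% of its exonic bases are shared with Tprkb. Nat8 had 116, 59.2, 60.6 and 65.2 CPM against 35.2, 42.8, 111 and 121 CPM. Nat8 and Nat8f5 were called higher in c-MafΔTAM mice among those with high Xist (log2 fold changes 0.66 ± 0.10 and 1.13 ± 0.18, adjusted P = 0.00119 and 0.00142), while Nat8 was at a ratio of 0.999 at low Xist. Nat8f2, Nat8f4, Nat8f7 and Nat8b-ps were not called for genotype in these 3 fits.

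The other Nat genes were not called for genotype. Nat2, an arylamine N-acetyltransferase, had 9.16, 4.26, 2.99 and 4.22 CPM in c-MafΔTAM and 5.79, 5.37, 7.36 and 7.68 CPM in control mice. Nat9 had 11.3 to 13.6 CPM against 13.05 to 15.3 CPM, and Nat10 and Nat14 had 2.00 to 26.0 CPM over all mice. Over the 38 genes, 34 had at least 1 CPM per kb of unshared exon on average, and the 4 below were Ugt2b5, Sult1b1, Sult5a1 and Sult2b1.

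Genes that supply or follow these enzymes were read from lists, 1 gene at a time. Of 7 tested genes of UDP-glucuronic acid supply, 1 was higher (Slc35a3, a transporter of UDP-N-acetylglucosamine into the Golgi, log2 fold change 0.47 ± 0.11, adjusted P = 0.0469), and Ugp2, which makes UDP-glucose, was also higher with Xist as a covariate (0.32, adjusted P = 0.00991). Of 6 genes of PAPS supply, 1 was lower (Bpnt1, which removes the by-product of sulfation, -0.58 ± 0.10, adjusted P = 0.0122), joined by Papss2, a PAPS synthase, with Xist (-0.57, adjusted P = 0.000868). Of 9 genes of the mercapturate route, 1 was lower, Dpep1, the dipeptidase before N-acetylation. Dpep1 averaged 43.0 ± 7.59 CPM in c-MafΔTAM and 130 ± 15.3 CPM in control mice (SD, n = 4; log2 fold change -1.60 ± 0.13, edgeR adjusted P = 6e-05), and Abcc4 was added with Xist (-0.64, adjusted P = 0.000949). Of 11 xenobiotic response regulators, 1 was lower, the nuclear receptor Ppara (-0.83 ± 0.11, adjusted P = 0.00147), and with Xist the receptor Nr1i2 was higher (0.51, adjusted P = 0.0454).

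In 3 further lists 0 genes were called without covariate by edgeR's quasi-likelihood test. They were 10 genes of coenzyme A and glycine supply (1 lower and 1 higher at an unadjusted P under 0.05, 0 by DESeq2, the exact test and limma), 7 genes of glucuronide and sulfate removal (0 unadjusted and 0 by each other tool) and 10 other conjugating transferases (2 lower and 0 higher unadjusted, 2 lower by DESeq2 and by the exact test, 0 by limma). With Xist, Shmt1, a maker of glycine, was lower (-0.34, adjusted P = 0.0074) and Slc6a20b higher (0.32, adjusted P = 0.0414), Arsb was lower (-0.46, adjusted P = 0.003), and Gnmt was lower (-0.74, adjusted P = 0.00472) while Inmt (0.64, adjusted P = 0.0149) and Baat (1.17, adjusted P = 0.0082) were higher.

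Some markers of the proximal tubule were lower in c-MafΔTAM mice. Of 9 markers of proximal tubule segments 1 and 2, 4 were lower in c-MafΔTAM mice (Slc5a2, Slc5a12, Slc34a1 and Slc4a4) and 0 higher, while Lrp2 (log2 fold change -0.17), Cubn (-0.03), Hnf4a (-0.20), Slc22a6 (-0.49) and Slc22a8 (-1.07) were not called. The summed level of the 9 was 9694.9 to 13415 CPM against 15804 to 17974 CPM in control mice. For 7 segment 3 markers the sums were 1840.6 to 4291 CPM and 1390.6 to 2934 CPM with 0 called (0 also at an unadjusted P under 0.05 and by DESeq2, the exact test and limma). With Xist as a covariate 3 of them were higher (Slc5a8, Atp11a and Aadat). Slc7a13 had 0.411 to 1.08 CPM with high and 204 to 324 CPM with low Xist, and Cyp7b1 1.66 to 2.55 and 97.8 to 170 CPM. Slc5a8 and Atp11a were also higher with low Xist, whereas Aadat and Slc22a13 were lower. The standard error of the genotype log2 fold change reached 2.46 (Slc7a13), so 0 calls do not show an unchanged segment. For 7 thick limb and distal markers the sums were 4238 to 6748 CPM and 5129 to 6907 CPM, with 0 called (1 lower unadjusted, 1 by DESeq2, 0 by the exact test and limma). In 8 tested of 12 hepatocyte markers 1 was lower (Ttr, log2 fold change -5.02, adjusted P = 0.0152). With Xist Alb was also lower (-2.25, adjusted P = 4.7e-05) and Serpina1b higher (2.57, adjusted P = 0.0104), and DESeq2 called 2 lower and 0 higher, the exact test 2 lower and 1 higher, and limma 1 lower and 0 higher. The summed level of the 12 was 671 to 1842 CPM in c-MafΔTAM and 706 to 1363 CPM in control mice. In 8 endothelial and immune markers 1 was lower without covariate (Kdr, -0.37, adjusted P = 0.0450) and with Xist, 1 by DESeq2 and 0 by the exact test and limma. The paper reports Slc5a2 (Sglt2) as directly regulated by c-Maf, so its level alone does not measure the number of cells here. In whole kidney, fewer cells of a type and less RNA per cell cannot be told apart, and the part of these markers in the differences above was not tested.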

How the data were processed

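Whole kidneys of 4 c-MafΔTAM and 4 c-Maf fl/fl mice were compared, each mouse being 1 replicate. The authors deposited unnormalized integer counts by gene symbol, made with featureCounts 2.0.1 on exons of Ensembl release 102 (GRCm38). Per the file header, each read of a pair was counted by itself, the counting ignored strand and dropped any read on exons of several genes, which lowers the counts of Ugt1a genes, Acsm3 and Nat8f1. The aligner is not given in the sources used here, and the submitters' processing notes name Subread 2.0.2 and edgeR 3.36.0. The study's own route through CLC Genomics Workbench starts from reads and was not repeated. 0 columns of samples were left unused.

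Genes were kept by filterByExpr (20149 of 55367, all 38 conjugation genes among them), scaled by TMM and tested with edgeR 4.0.16 (robust quasi-likelihood, limma 3.58.1, R 4.3.3), adjusted over all genes tested and called at 0.05. Standard errors were taken from the fold change and the F value of each gene. CPM are TMM-scaled, and log2 levels of Xist used a prior count of 2. Levels per kb use exonic bases no other gene shares, and shared 36-base stretches were taken from GENCODE transcripts. Replicates differed by more than counting noise in all 12 pairs within genotypes. Alternatives were RLE and upper-quartile factors, DESeq2 1.42.0, edgeR's exact test, quantile normalization with limma-trend, other count minimums, a replicate block, Xist as a covariate, mice with high Xist, counts without mitochondrial genes, a stricter threshold and leaving out each mouse. The interaction and the leave-one-out fits of genotype with Xist as a covariate were added after the data had been seen.

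The members and lists were chosen with earlier results of these data known. Named by rule were genes called, the 2 highest per length of each family over the 8 mice, the 3 with the smallest P and those called for Xist with a log2 difference of at least 2. The other 14 genes were named after their values were seen. Differences between mice may be technical or biological, since a single library was made per mouse.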

Additional observations from a re-analysis of the deposited data

Results flagged for a closer look

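In groups of 4 mice, a value was marked where its gap to the nearest other mouse, over the range of its group, passed the 95% critical value of Dixon's test. This holds by chance for about 1 in 20 groups, and it held for 11 of 76 groups (38 genes in 2 genotypes). In 8 of the 11 the mouse was c-MafΔTAM mouse 1, the single mouse of its genotype with low Xist. It was highest of its group for Ugt8a (108 CPM), Ugt2b37 (45.9 CPM), Ugt2b38 (38.8 CPM), Nat8 (116 CPM), Acsm2 (3590.5 CPM) and Acsm3 (545 CPM) and lowest for Ugt1a2 (0.560 CPM) and Ugt1a6a (1.58 CPM). For the first 6 of these genes control mice with low Xist were likewise above those with high Xist, and for Ugt1a2 and Ugt1a6a below. Its mitochondrial share of 32.3% was the highest of the 8, and its part in these values was not tested.

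The other 3 were Nat8f7 in control mouse 2 (2.89 CPM), Nat8f3 in control mouse 4 (6.63 CPM) and Sult2b1 in c-MafΔTAM mouse 2 (1.64 CPM), each the highest of its group.

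The genotype difference differed between mice with low and high Xist, by the interaction test over all genes, for Ugt2b34 (-2.30 on the log2 scale, adjusted P = 0.00059 by edgeR) and Ugt2b38 (1.65, adjusted P = 0.00284). Both genes were lower in c-MafΔTAM mice at each Xist level. The test rests on 1 c-MafΔTAM mouse with low Xist.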

How the results depend on the processing

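The count of 0 conjugation genes called for genotype stayed 0 lower and 0 higher with RLE or upper-quartile factors, at least 10 counts in every mouse (34 genes tested), without mitochondrial genes, with the replicate block and at an adjusted P of 0.01. It became 1 lower and 2 higher by DESeq2 and by the exact test (3 of the 24 genes named by rule), 0 and 1 with quantile normalization (1 named), 1 and 0 with at least 1 count in any mouse (1 named), 3 and 4 with Xist (6 named) and 4 and 7 in mice with high Xist (9 named). Without 1 mouse it was 0 to 2 lower and 0 to 1 higher (0 to 2 named): Ugt1a7c and Glyat without c-MafΔTAM mouse 1, Acsm5 without control mouse 1, Nat8f3 without control mouse 4. With Xist and without 1 mouse, 1 to 4 were lower and 1 to 6 higher. Genes called for Xist numbered 19, and 17 to 19 without 1 mouse. They numbered 19 with RLE factors, 18 with at least 1 count in any mouse (without Ugt2b34) and 20 with the replicate block (without Ugt2b5, with Ugt1a7c and Ugt3a1). The interaction called 2, and 2 to 4 without 1 mouse, where Sult1d1 and Nat8f1 were added without c-MafΔTAM mouse 4 and Ugt1a2 without control mouse 4.

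Some log2 fold changes that were not called over all mice without covariate changed sign, and Ugt1a2 and Nat8 were called with the other sign in mice with high Xist. With Xist and in mice with high Xist these were Ugt1a2 (-0.43 and -0.37), Ugt1a1 (-0.39 and -0.38), Ugt8a (0.064 and 0.11), Nat8 (0.32 and 0.66) and Ugt3a1 (0.13 and 0.51). In mice with high Xist alone Ugt2b5 (0.13), Ugt2b37 (0.029) and Acsm3 (1.01) did so, and with quantile normalization Nat8 (0.16) and Ugt3a1 (0.059). Nat8 also did so with upper-quartile factors (0.013) and the replicate block (0.082). Without 1 mouse, log2 fold changes on both sides of 0 were found for Ugt1a6b (-0.25 to 0.25), Ugt1a2 (-0.21 to 0.85), Ugt1a1 (-0.35 to 0.64), Ugt8a (-1.73 to 0.15), Nat8f5 (-0.31 to 0.60), Nat8 (-0.32 to 0.26), Nat8f2 (-0.36 to 0.48), Nat8b-ps (-0.027 to 0.35), Acsm2 (-0.99 to 0.0041), Acsm3 (-5.34 to 0.11), Sult1a1 (-0.19 to 0.0038), Ugt3a1 (-0.34 to 0.11) and Ugt3a2 (-0.074 to 0.22). The cause was not tested.

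Replicate numbers did not pair the mice: deviations of same-numbered mice correlated at -0.37, 0.15, -0.11 and -0.33, and only c-MafΔTAM mouse 2 correlated best with its own number. Counting error limits the genes with fewest counts over the 8 libraries, from 125 in Sult2b1 through Sult5a1, Nat8b-ps, Ugt2b5, Ugt1a5, Ugt1a6b and Sult1b1 to 353 in Ugt1a1.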
